A study of Mus musculus with 4 samples.

Results

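The cells described here are OPC-like cells, that is oligodendrocyte progenitor cells (OPCs) that were carried along in a sort aimed at astrocytes of the mouse spinal cord. They were chosen by their own transcripts. A cell entered when it held more than 500 and fewer than 50000 gene UMIs (unique molecular identifiers, 1 per captured mRNA molecule), a UMI of at least 4 of the 7 genes Pdgfra, Cspg4, C1ql1, Lhfpl3, Pcdh15, Tnr and Nxph1, and fewer than 5 UMIs of C1qa, C1qb and C1qc together, which mark microglia. Of 5038 kept cells, 61 were OPC-like, 47 of them among 879 cells of the injured cord and 14 among 4159 cells of the uninjured cord.

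The cells came from Cx30-tdTomato reporter mice, in which a Cre under the Cx30 (Gjb6) promoter turns on the red fluorescent protein tdTomato, mainly in astrocytes, after tamoxifen. All mice, the uninjured ones included, had received a pool of enhancer-reporter AAVs by vein. One group was then given a spinal cord injury and sampled 3 days later from 5 mm of tissue at the epicenter, and the other group was sampled uninjured at the same level of the cord. Cells digested from several pooled animals were sorted by fluorescence and read as 1 gene library and 1 barcode library per condition, so no comparison between conditions has a replicate check and no p-value is given.

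OPCs are dividing glia that tile the adult cord and give rise to myelinating oligodendrocytes. They are recognized by the PDGF-AA receptor Pdgfra and the proteoglycan NG2 (encoded by Cspg4), receive synaptic input from neurons, and depend on the lineage factors Olig1, Olig2 and Sox10. After cord injury OPCs are known to proliferate near the lesion and to contribute chondroitin sulfate proteoglycans to the scar.

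G2 and M phase genes were among the most changed genes, and the promoters of 3 of them are shown because many such genes share sequence elements that bind cell cycle regulators. The elements are the CCAAT box, recognized by NF-Y, and the cell cycle homology region (TTTGAA or TTCGAA), recognized by the MuvB complexes. Each stretch is the 180 bases just before the first annotated transcript start, read from RefSeq windows of build GRCm38.p6 on the minus strand of its gene, 5′ to 3′, with both elements in capitals on either strand. Top2a (DNA topoisomerase II alpha) lies at chr11:99024190-99024369, Cdk1 (the mitotic kinase) at chr10:69352939-69353118 and Ccnb2 (cyclin B2, a partner of Cdk1) at chr9:70421555-70421734.
Top2a: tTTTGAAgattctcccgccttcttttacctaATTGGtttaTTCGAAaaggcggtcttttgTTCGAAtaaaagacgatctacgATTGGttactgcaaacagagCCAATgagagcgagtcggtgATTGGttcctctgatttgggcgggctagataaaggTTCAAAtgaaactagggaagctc
Cdk1: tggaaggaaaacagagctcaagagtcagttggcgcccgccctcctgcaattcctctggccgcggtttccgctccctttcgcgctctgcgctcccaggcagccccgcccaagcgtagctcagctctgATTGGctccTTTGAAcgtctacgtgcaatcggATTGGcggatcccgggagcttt
Ccnb2: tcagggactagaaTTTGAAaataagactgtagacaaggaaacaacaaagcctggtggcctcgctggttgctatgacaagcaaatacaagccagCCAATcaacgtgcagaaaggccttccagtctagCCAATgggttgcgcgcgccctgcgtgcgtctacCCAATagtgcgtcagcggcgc
The Top2a stretch held 4 copies of each element, the Cdk1 stretch 2 CCAAT boxes and 1 homology region, and the Ccnb2 stretch 3 CCAAT boxes and 1 homology region.

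OPC-like cells made up 5.35% of kept cells in the injured library (95% Clopper-Pearson interval, 3.95 to 7.05%) and 0.337% in the uninjured library (0.184 to 0.564%). The rest of the sort differed as well, with astrocyte-like cells (a UMI of at least 4 of 8 astrocyte markers) at 33.0% of injured and 89.6% of uninjured kept cells and microglia-like cells at 12.9% and 0.697%. A higher share of OPC-like cells and a lower share of other sorted cells cannot be told apart. All intervals cover counting error only. Few cells lay near the limit of the rule, since 41 of 47 injured and 10 of 14 uninjured OPC-like cells held all 7 genes, and only 5 kept cells in each library held exactly 3. The injured cell just inside held 4 of the genes with 18 Olig1 UMIs, whereas the 5 injured cells just outside held no Olig1 or Olig2 UMI. Among the uninjured cells just outside, those with 10596 and 8879 gene UMIs held 3 Olig1 UMIs each, and the latter 1 Olig2 UMI. These cells held 121 and 68 UMIs of astrocyte markers. Of 2 injured cells that held at least 4 of the genes but too many UMIs, one (58430 gene UMIs) held 21 Olig1 UMIs and the other (114012) held none. No cell was lost to the C1q limit.

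**Figure D1:**
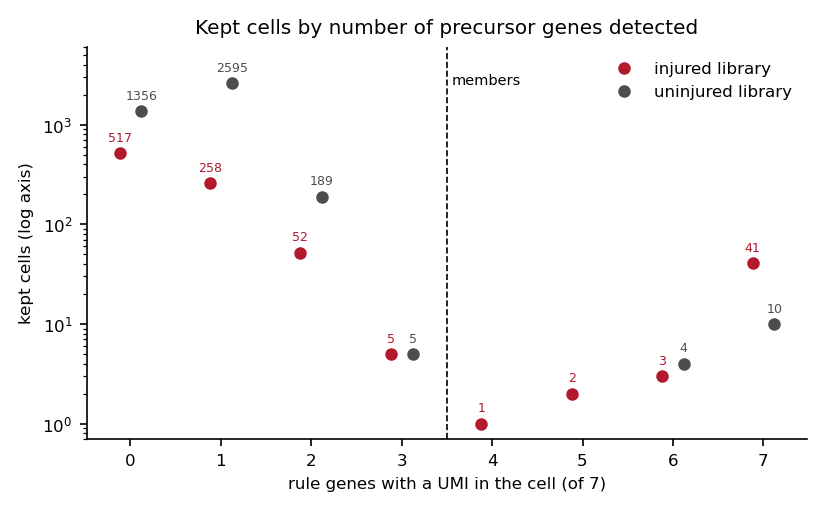
Number of kept cells (log axis) by how many of the 7 rule genes had a UMI in the cell (horizontal axis), with 1 point per library and its count beside it. Most kept cells held 0 to 2 genes, 5 in each library held 3, and the OPC-like cells right of the dashed line mostly held all 7 (41 injured, 10 uninjured).

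The OPC identity was checked with genes that the rule did not use. Each of the 61 cells held a UMI of Olig1, Olig2 or Sox10, the factors of the oligodendrocyte lineage, and 43 of 47 injured and 9 of 14 uninjured cells held all 3. Olig1 ran from 639 to 7559 CPM (UMIs per 1000000 gene UMIs) over injured cells with a median of 1800, and from 960 to 4647 CPM over uninjured cells with a median of 2000, so the groups overlapped throughout. Markers of other cell types were present at low levels. Aqp4, the astrocyte water channel, had 5 UMIs in the injured and 0 in the uninjured cells, and Gja1 (connexin 43) had 1 UMI in each group. Of 8 astrocyte markers 7 had a UMI in injured and 4 in uninjured cells, and their summed level, 88.8 to 2044 CPM over injured and 0 to 1908 CPM over uninjured cells, was mostly Slc1a2 (504 and 83 UMIs), a glutamate transporter. The same markers summed to 11603 CPM in injured astrocyte-like cells. All 8 microglia markers had a UMI in the injured cells, at 67.0 CPM summed against 21091 CPM in microglia-like cells, and 5 of 7 mature oligodendrocyte markers had one in 42 of the 47 cells, at 400 CPM summed against 169 CPM in uninjured cells, with Ermn and Opalin at 0. At least 3 markers of astrocytes were held by 15 injured cells and 1 uninjured cell, at least 3 of microglia by 3 injured cells, and at least 3 of oligodendrocytes or of neurons by 2 injured cells each. Without the cells that held 3 markers of any other class, 27 injured and 13 uninjured cells remained, and 96 of the 113 and 33 of the 45 calls described below were made again.

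When all kept cells were clustered without labels, 55 of the 61 cells and no other cell formed 1 of 12 clusters. It was the only cluster that scored highest for OPC markers. Those 6 markers were all genes of the rule and were not removed before the clustering, so the cluster and its score are no independent check. The other 6, all injured, were placed in a cluster of 350 cells led by astrocyte markers. Of the injured cells, 20 held an Xist UMI and no Y-linked one, 20 held the reverse and 7 held neither, whereas the uninjured OPC-like cells held no Xist UMI and 10 of 14 held a Y-linked one. The injured OPC-like cells were thus a mix of female and male cells. The libraries as a whole differed likewise, with an Xist UMI in 252 of 879 injured and 5 of 4159 uninjured kept cells. Sex and condition thus cannot be told apart in calls over all cells. Some results for OPC-like cells below are also given for cells with a Y-linked and no Xist UMI. The 2 libraries shared 7 cell barcodes, 1 of them that of an OPC-like cell.

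Depth differed strongly. Injured OPC-like cells held 4498 to 43746 gene UMIs (median 20221, 1029970 in all) and uninjured ones 2024 to 12498 (median 6182, 94822 in all), so that 1 UMI was worth 0.971 CPM in the summed injured cells and 10.5 CPM in the summed uninjured cells. A gene was called changed when the whole 95% interval of its ratio (exact conditional binomial) lay beyond 2-fold. A call of higher needed at least 82 UMIs in both groups together, and 3042 genes had them. Of these, 113 were called higher in injured cells (3.71% of 3042) and 45 lower (1.48%). Among all 13964 genes with enough UMIs for a call of lower, 150 passed (1.07%). The median log2 ratio of the 3042 genes was 0.14, and the lists below are read against it. A gene with 0 UMIs in a group was set at 3 counts, the limit that a count of 0 allows, which was 31.6 CPM for the uninjured cells. A fold given below as "at least" is against this limit, and the lower bound of the exact interval used for the calls stands beside it.

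**Figure D2:**
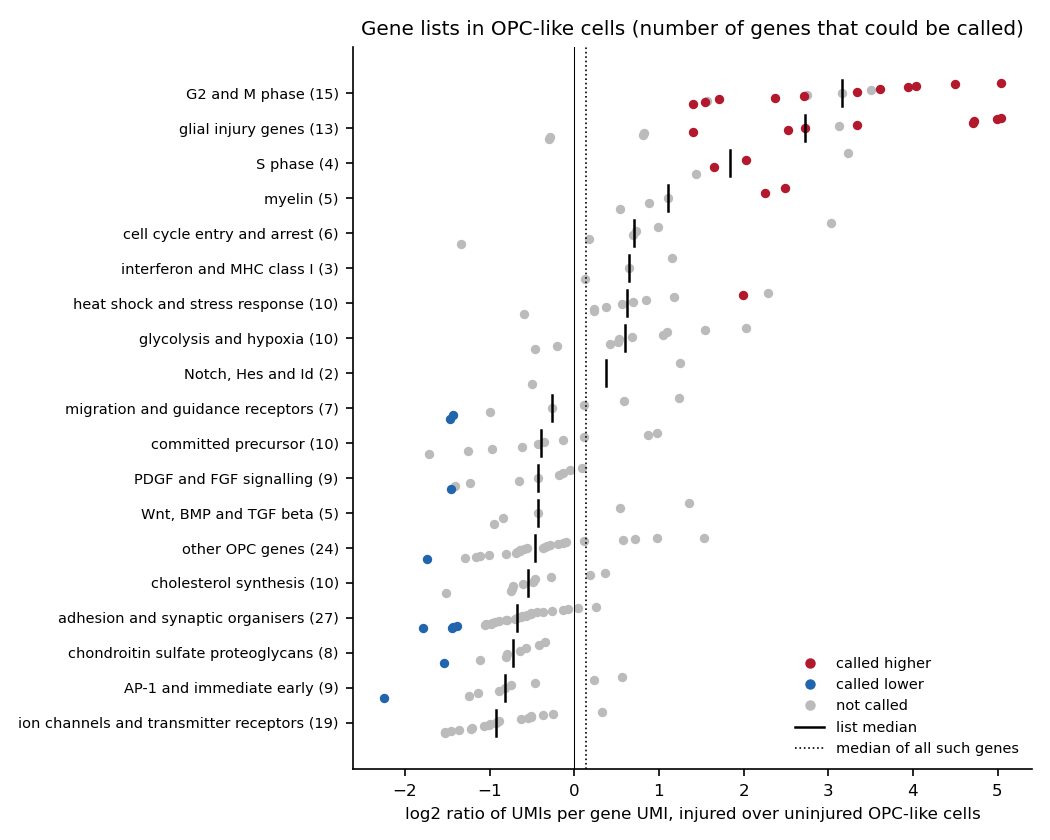
Log2 ratio of UMIs per gene UMI, injured over uninjured OPC-like cells (horizontal axis), for each gene of 19 lists that could be called either way (number in brackets), colored by call. Bars mark list medians and the dotted line the median of 0.14 over all 3042 such genes. G2 and M phase genes (median 3.16) and glial injury genes (2.73) sit farthest right, ion channel and transmitter receptor genes (-0.92) farthest left.

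Many G2 and M phase genes were higher in the injured OPC-like cells. Of 24 such genes 15 could be called, 11 of them were called higher and none lower, and all 15 lay above a ratio of 1 (median log2 ratio 3.16). The 11 were called again without the cells that held 3 markers of another class. Top2a (chr11:98992943-99024189) had 0 UMIs in all 14 uninjured cells and 501 in 19 of the 47 injured cells, with a median cell at 0 and the highest at 4440 CPM. Its summed level of 486 CPM was at least 15.4-fold higher (exact bound 12.5). Hmgb2, a chromatin protein of dividing cells, had 715 UMIs in 32 injured cells and 2 in uninjured cells, a ratio of 32.9 (9.08 to 272). Mki67, the proliferation marker, had 245 UMIs in 20 injured cells and 1 in uninjured cells, 22.6-fold (4.01 to 894).

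The centromere protein gene Cenpf had 329 UMIs against 0, at least 10.1-fold higher (exact bound 8.16), and Ube2c, whose product feeds the anaphase-promoting complex, had 213 against 0, at least 6.54-fold higher (exact bound 5.27). Cdk1 had 107 UMIs in 12 injured cells against 0, at least 3.28-fold higher (exact bound 2.62). The remaining genes of the list called higher were Tpx2, Birc5, Ccnb2, Cenpa and Kif11. Of 22 S phase genes only 4 could be called, and Pcna, the replication clamp (133 UMIs against 0), and Rrm2, a subunit of ribonucleotide reductase (102 against 0), were called higher. Pclaf, a Pcna partner, and Stmn1, which destabilizes microtubules, stood outside the lists and were called higher too, with 261 UMIs against 0 and 916 against 6.

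In holding both elements, the sequences given above were typical of the called genes of this group. A RefSeq window of 250 bases before to 50 after the start was found for 10 of the 11 called G2 and M phase genes (not for Tpx2), and all of the 10 but Birc5 held both a CCAAT box and a cell cycle homology region, on either strand. Both elements stood in 7.73% of 27025 gene windows of the same length and in 23.9% of the 88 windows of genes called higher. The 88 include these 10 windows, and 9 of the 21 of the 88 with both elements were among them. Of the 35 windows of genes called lower with 82 UMIs or more, 5.71% held both, and neither S phase gene called higher did. A match of letters is a description and was not tested as a binding site.

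The cycle genes were unevenly spread over the injured cells. With every cell thinned to 2000 gene UMIs, 24 of 47 injured OPC-like cells held at least 3 UMIs of the S, G2 and M phase genes (51.1%, 36.1 to 65.9%), against 1 of 14 uninjured cells (7.14%, 0.181 to 33.9%). Before thinning the shares were 93.6% and 35.7%, at unequal depth. Over injured cells the summed level of these genes ran from 120 to 24930 CPM with a median of 896, and over uninjured cells from 0 to 1482 CPM with a median of 287. The groups overlapped at the low end, and the high end was held by injured cells. In the same injured library and at the same thinned depth the share was 15.7% of 255 astrocyte-like cells (11.4 to 20.7%), 14.6% of 103 microglia-like cells (8.39 to 22.9%), 12.9% of 62 endothelial-like cells (5.74 to 23.9%), 32.4% of 34 fibroblast-like cells (17.4 to 50.5%) and 32.9% of 85 ependymal-like cells (23.1 to 44.0%). The interval of the OPC-like share lay above those of astrocyte-, microglia- and endothelial-like cells and overlapped those of fibroblast- and ependymal-like cells. The count does not by itself mark dividing cells, since 47.8% of the 23 uninjured ependymal-like cells reached it with no UMI of Top2a or Mki67. Top2a alone had 486 CPM in OPC-like cells (445 to 531), above 87.6 CPM in microglia-like cells (74.4 to 102) and 28.9 CPM in astrocyte-like cells (22.0 to 37.4).

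**Figure D3:**
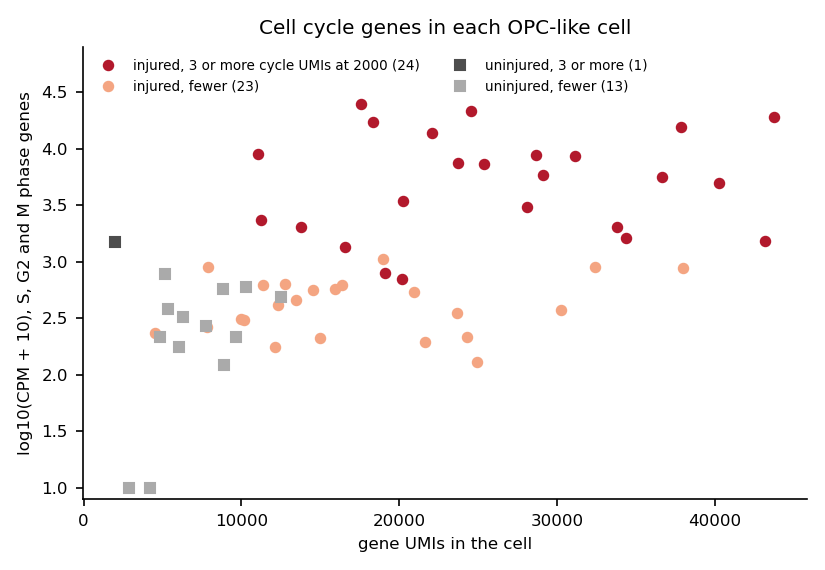
Level of the S, G2 and M phase genes in each OPC-like cell as log10(CPM + 10), against the gene UMIs of the cell, with 1 point per cell. The 24 injured cells with 3 or more cycle UMIs at 2000 gene UMIs (dark red) lie above most of the other 23 (light red) and most of the 14 uninjured cells (gray squares, 1 of them with 3 or more), and they reach depths up to 43746 UMIs.

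The injured cells were split by this count to see which genes went with it. The 24 cells with at least 3 cycle UMIs at the thinned depth had a median of 24958.5 gene UMIs (11075 to 43746) and the other 23 a median of 14993 (4498 to 37961). Unthinned, every one of the 47 held a cycle UMI, 14 to 842 in the 24 cells, called cycle-high below, and 1 to 33 in the 23. A UMI of Top2a or Mki67 was held by 19 of the 24 and 2 of the 23, and the cycle levels of the groups met between 693 CPM, the lowest of the first, and 1053 CPM, the highest of the second. By the way they were split, Top2a had 791 CPM in the first and 5.01 CPM in the second. Olig1 had 1668 CPM in the cycle-high cells and 2459 in the rest, with a ratio of 0.621 to 0.741. Bcas1, a marker of cells committed to become oligodendrocytes, had 569 and 949 CPM (ratio 0.518 to 0.695), and Gpr17, a receptor of committed precursors, had 178 and 308 CPM (0.442 to 0.751). Pdgfra had 601 and 638 CPM, with an interval that spans 1 (0.801 to 1.11), and Ccnd1, the cyclin of cell cycle entry, 1226 and 1074 CPM (1.01 to 1.29).

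Ccnd1 was plentiful in both conditions, with 43 of 47 injured and all 14 uninjured cells holding a UMI, and its ratio of 1.65 (1.29 to 2.15) was not called. In injured astrocyte-like cells Ccnd1 was at 73.3 CPM against 1167 CPM in the OPC-like cells. None of the 6 genes of cell cycle entry and arrest that could be called passed (median log2 ratio 0.71). Cdkn1a, an inhibitor of cyclin-dependent kinases, had 60 UMIs against 1, a ratio of 5.52 (0.954 to 222).

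Of 34 genes known from reactive glia 13 could be called, 8 were called higher and none lower (median log2 ratio 2.73). Of the 5 not called, 2 lay below a ratio of 1, with the lowest log2 ratio at -0.30. All 8 were called again without the cells that held 3 markers of another class. Serpina3n (chr12:104406729-104414329), a secreted serine protease inhibitor, had 0 UMIs in the 14 uninjured cells and 854 in 40 of 47 injured cells. It ran from 0 to 8335 CPM over injured cells with a median of 361, and its summed 829 CPM was at least 26.2-fold higher (exact bound 21.3). In the thinned cells 51.1% of the injured and 0% of the 14 uninjured cells held a UMI. The Clopper-Pearson interval of 0 of 14 reaches 23.2%. In the injured library Serpina3n was at 376 CPM in astrocyte-like cells and 96.7 CPM in ependymal-like cells, at 2.79 CPM in microglia-like cells (a UMI in 4.42% of cells at a median of 14502 gene UMIs), and had no UMI in fibroblast- or endothelial-like cells. OPC-like cells thus had the highest rate of this transcript among the 6 classes compared.

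Lgals1 (galectin 1) had 863 UMIs in 37 injured cells, from 0 to 6955 CPM with a median of 394, and 3 UMIs in 1 uninjured cell, a ratio of 26.5 (9.03 to 129). Vim (chr2:13573927-13582826), the intermediate filament vimentin, had 347 UMIs in 34 injured cells and 1 in uninjured cells, 31.9-fold (5.70 to 1265). S100a10, which binds annexin A2, had 358 UMIs in 40 cells against 1, 33.0-fold (5.88 to 1305). S100a6, another S100 calcium-binding protein, had 689 UMIs against 11, 5.77-fold (3.20 to 11.6), and Tmsb10, an actin-binding peptide, 660 against 6, 10.1-fold (4.63 to 27.7). In the injured library Vim was lower in OPC-like cells (337 CPM) than in each other class compared. Microglia-like cells came next (634 CPM), and astrocyte-like cells had 2018 CPM. Tmsb10, at 641 CPM, was above astrocyte- (99.3 CPM), ependymal- (165 CPM) and microglia-like cells (416 CPM). It was below fibroblast- (2035 CPM) and endothelial-like cells (2423 CPM).

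Gfap (chr11:102887336-102900912), the intermediate filament of astrocytes, had 216 UMIs in 24 of 47 injured cells and 0 UMIs in the 14 uninjured cells, which puts it at least 6.63-fold higher (exact bound 5.34). Its level ran from 0 to 1403 CPM with a median of 22.9. Microglia-like cells, which should lack it, had 44.6 CPM, with a UMI in 26 of 113 cells at a median of 14502 gene UMIs, against 210 CPM in OPC-like cells at a median of 20221. Injured astrocyte-like cells had 2823 CPM. Tubb6, a beta tubulin, was the eighth gene called, with 86 UMIs in 18 cells against 0. Lcn2 and Timp1, also known from reactive astrocytes, had 2 and 9 UMIs in the 47 cells. Cd44 (53 UMIs in 17 cells) and Nes (55 in 18 cells) had no UMI in uninjured cells but too few in all for a call.

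**Figure D4:**
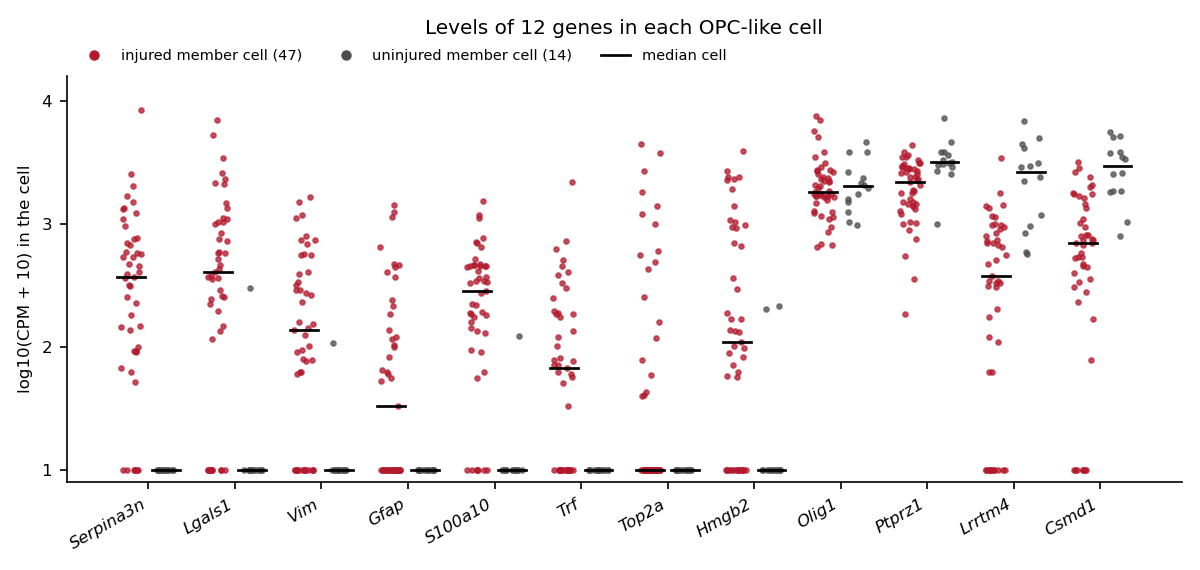
Level of 12 genes in each of the 47 injured (red) and 14 uninjured (gray) OPC-like cells as log10(CPM + 10), with 1 point per cell and a bar at the median cell; points at 1 are cells with no UMI. Serpina3n, Lgals1, Vim, Gfap, S100a10, Trf and Hmgb2 were present in many injured cells and at or near 0 in uninjured cells. Top2a was present in fewer (19 of 47 injured cells). Olig1 overlapped, and Lrrtm4 and Csmd1 were highest in uninjured cells.

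These genes were not limited to cycle-high cells. In the other 23 injured cells, 7 of the 8 genes were still called higher than in uninjured cells, with Tubb6 as the exception. Serpina3n had 929 CPM in them and 766 CPM in the cycle-high cells (ratio of cycle-high to rest 0.719 to 0.947). A single cell of the 23 held 208 of their 371 Serpina3n UMIs, and the ratio was not recomputed without it. Gfap had 230 CPM in the 23 and 197 CPM in the cycle-high cells (0.647 to 1.13). Only 7 of the 23 held a Gfap UMI, against 24 of all 47 injured cells. Single cells held 35, 26 and 24 of the 92 Gfap UMIs of the 23. Against the same uninjured cells 60 genes were called higher and 65 lower in these 23, and 52 of the 113 genes were among the 60.

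Of 15 myelin genes only 5 had enough UMIs for a call either way, and 2 were called higher. Trf, the iron carrier transferrin, had 183 UMIs in 29 injured cells and 0 in uninjured cells, at least 5.62-fold higher (exact bound 4.52), and Cldn11, a tight junction protein of myelin, 155 UMIs in 28 cells against 0, at least 4.76-fold higher (exact bound 3.82). Both were called again without the cells that held 3 markers of another class, where the log2 ratio of Trf was 1.55 instead of 2.49. In microglia-like cells of the injured library Trf was at 506 CPM, above the 178 CPM of OPC-like cells, while Cldn11 was at 0.558 CPM there against 150 CPM. Mbp, myelin basic protein, had 26 UMIs against 5 and was not called.

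None of the 10 committed precursor genes that could be called passed, although Bcas1 had 738 UMIs in all 47 injured cells against 37 in 12 of 14 uninjured cells (ratio 1.84, 1.32 to 2.63) and Gpr17 had 235 against 11 (1.97, 1.08 to 3.99). Bmp4 had 1 UMI and Enpp6, an enzyme of newly formed oligodendrocytes, had none in any of the 61 cells.

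Precursor genes that the rule did not use held no call of higher. Of 25 further OPC genes 24 could be called, 19 lay below a ratio of 1, none was called higher, and Megf11 alone was called lower (median log2 ratio -0.46). Megf11, a transmembrane protein of the Draper family, ran from 0 to 827 CPM in injured cells (median 133) and from 0 to 1120 CPM in uninjured cells (median 607), a ratio of 0.301 (0.224 to 0.409). Ptprz1, a receptor phosphatase and proteoglycan, was at 2140 and 3333 CPM, injured and uninjured (0.642, 0.570 to 0.725), and Olig2 at 400 and 622 CPM (0.643, 0.488 to 0.860). Sox10 was at 208 and 127 CPM (1.64, 0.921 to 3.23). As a description of the rule's own genes, the ratios of summed levels were 0.858 for Pdgfra, 0.590 for Cspg4, 0.898 for C1ql1, 0.610 for Lhfpl3, 0.450 for Pcdh15, 0.733 for Tnr and 0.396 for Nxph1.

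No chondroitin sulfate proteoglycan gene was called higher. All 8 that could be called lay below a ratio of 1 (median log2 ratio -0.72), and the sulfotransferase gene Chst11 was called lower, with 236 UMIs in injured and 63 in uninjured cells (0.345, 0.260 to 0.463). Cspg5 (neuroglycan C) was at 1553 and 2710 CPM (0.573, 0.502 to 0.656) and Vcan (versican) at 1237 and 1571 CPM (0.787, 0.664 to 0.939), neither of them called. Of 9 PDGF and FGF signalling genes that could be called, only Fgf14, an intracellular partner of sodium channels, passed, as lower (0.365, 0.305 to 0.440).

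In the list of adhesion and synaptic organizer genes 27 could be called, of which Csmd1, Lrp1b and Lrrc4c were called lower, as was Sox2ot, a noncoding RNA that overlaps Sox2 and was kept in the list, and 25 lay below a ratio of 1 (median log2 ratio -0.68). Csmd1 (chr8:15892537-17535586), a complement regulator, ran from 0 to 3194 CPM over injured cells with a median of 685, and from 791 to 5521 CPM over uninjured cells with a median of 2966, 3.46-fold lower in sum (3.03 to 3.94). Lrrc4c, a netrin-G ligand, was at 2353 and 6138 CPM, 2.61-fold lower (2.38 to 2.86). Lrrtm4 (chr6:80018877-80810143), which organizes excitatory synapses, was in no list and had 602 UMIs in 36 of 47 injured cells and 278 in all 14 uninjured cells, 5.02-fold lower (4.34 to 5.79). Of 19 ion channel and receptor genes none was called, yet 18 lay below a ratio of 1 (median log2 ratio -0.92), among them Gria4, an AMPA receptor subunit (2.34-fold lower, 1.98 to 2.75), and the potassium channel gene Kcnd2 (2.09-fold lower, 1.83 to 2.39). Gria4 was called lower in the cells with a Y-linked and no Xist UMI, without the cells that held 3 markers of another class, and without its richest cell.

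The genes called lower with 82 UMIs or more, a set singled out after the values were seen, were led by Rtl4, Lrrtm4, Unc13c (6.26-fold lower, nearest bound 4.31), Tenm2 (5.69-fold lower, 3.62 to 8.80), Ier2, Pde10a, Dlg2 (3.58-fold lower, 3.03 to 4.22), Csmd1, Gpc5, Meg3, Mapk10, Asic2, Xkr4, Thrb and Dgkb. Lrrtm4, Tenm2, Dlg2 and Csmd1 encode proteins of synapses or cell contacts. By the nearest bound alone, the order began with Kcnip4 (1 UMI against 10), Rbm20 (0 against 6), Mgat4c (2 against 8), 1700016P03Rik and Gpr158 (44 against 35, 8.64-fold lower, 5.38 to 13.8), most of which rest on few UMIs in few cells. Of 25 migration and guidance receptors 7 could be called either way, and Unc5c (0.370, 0.306 to 0.450) and Robo1 (0.361, 0.289 to 0.455), receptors for netrin and Slit, were called lower. Plxna4, which had too few UMIs to be one of the 7, was called lower with 27 against 13. Without the cells that held 3 markers of another class, Robo1 was called again, and Unc5c and Plxna4 were not. Plxna4 was also not called in the cells with a Y-linked and no Xist UMI or without its richest cell.

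Of 9 immediate early genes that could be called, 7 lay below a ratio of 1 (median log2 ratio -0.82). Ier2 alone passed, as lower, with 94 UMIs in 25 injured cells and 41 in 11 of 14 uninjured cells (4.74-fold lower, 3.20 to 6.91). Fos was at 1055 and 1455 CPM (0.725, 0.607 to 0.872) and Jun at 933 and 1561 CPM (0.598, 0.502 to 0.716). Over injured cells Fos ran from 0 to 5119 CPM and over uninjured cells from 0 to 3480 CPM, so the groups overlapped. In the 23 cells that were not cycle-high, Fosb, Egr1 and Ier2 were called lower. The same genes and Nr4a1 were called lower in the cells with a Y-linked and no Xist UMI.

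The remaining lists held 1 call, and it rests on which cells are counted. Mt1, a metallothionein, was called higher among 10 heat shock and stress genes, with 562 UMIs against 13 (3.98-fold, 2.31 to 7.52), and was not called in the cells with a Y-linked and no Xist UMI (log2 ratio 1.88) or without the cells that held 3 markers of another class (1.72). Its 546 CPM stood near the 437 CPM of microglia-like and 439 CPM of endothelial-like cells of the injured library, and below the 8457 CPM of astrocyte-like cells. No gene was called among 10 cholesterol synthesis genes (median log2 ratio -0.55), 10 glycolysis and hypoxia genes (0.60), 5 Wnt, BMP and TGF beta genes (-0.43), 3 interferon and MHC class I genes (0.65) or 2 Notch, Hes and Id genes (0.38). In the cells with a Y-linked and no Xist UMI, Id2 and Ldha, a glycolytic enzyme, were called higher. Outside the lists, Col11a1, a fibrillar collagen chain, had 309 UMIs in 36 injured cells against 1 (28.4-fold, 5.07 to 1127) and Tmem176a 1030 in 46 cells against 11 (8.62-fold, 4.80 to 17.3).

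Several measures of RNA composition moved with these groups. Of the 113 genes called higher, 35 were ribosomal protein genes, of which 81 of 83 tested lay above a ratio of 1 with a median log2 ratio of 1.44. Ribosomal protein genes took 8.24% of UMIs in injured and 3.20% in uninjured OPC-like cells, and 5.19 and 1.27% in astrocyte-like cells. Genes over 200 kb took 15.2 and 26.4% in OPC-like cells and 14.8 and 21.8% in astrocyte-like cells. The median gene length was 6.15 kb for genes called higher and 578 kb for the 45 called lower, against 35.1 kb for the 3042. Malat1, a nuclear RNA, took 1.74 and 3.14%, injured and uninjured. The part of these shifts in the lower calls of long genes was not tested.

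The calls were repeated in cells of 1 sex. In the 20 injured and 10 uninjured cells with a Y-linked and no Xist UMI, 142 genes were called higher and 162 lower, and 96 of the 113 and 40 of the 45 were called again, and 65% and 10% of the thinned cells held at least 3 cycle UMIs. With the most UMI-rich cell of each gene left out of each group, 103 of the 113 and 34 of the 45 were called again. Kif11, Rrm2, Tubb6, Sox2ot and Chst11 were among the genes then no longer called.

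Astrocyte-like cells of the same libraries give a measure of what was shared. Of the 113 genes, 89 were also called higher in injured astrocyte-like cells, where 1135 of 17749 genes were (6.39%), and of the 45 lower genes 7 were called lower there, where 263 of 11713 were (2.25%). Both shares are over all genes that could be called in astrocyte-like cells, not over the 3042, for which no such share was counted. The cells of both classes came from the same 2 libraries. Among the 24 genes not called in astrocyte-like cells were Hmgb2 and Stmn1, with ratios there of 2.00 to 2.95 and 1.67 to 2.37, Cldn11, and Racgap1, a regulator of cytokinesis (153 UMIs against 0 in OPC-like cells, 18.0 and 23.9 CPM in astrocyte-like cells). Pvt1, a noncoding RNA next to Myc, was at 181 and 21.1 CPM in OPC-like cells and at 34.9 and 49.5 CPM in astrocyte-like cells. Il33, a nuclear alarmin, was at 86.4 and 0 CPM in OPC-like cells and at 108 and 172 CPM in astrocyte-like cells. The differences between the classes were not tested.

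Set against injured astrocyte-like cells, 1658 of 13730 genes were called higher in injured OPC-like cells (12.1%). Both classes were chosen on expression, so this is a description. Besides genes of the rule, the leading ones were Dscam, Mybpc1, Tmem132d, Slc35f1, Anks1b, Gpr17, Sema3d, Dcc, Lrrtm4, Ralyl and Neu4. Sema3d, a secreted guidance cue, was 303-fold higher (118 to 1114), and the sialidase gene Neu4 had no UMI in 290 astrocyte-like cells and was at least 119-fold higher (exact bound 95.6).

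The tdTomato reporter and the enhancer barcodes were not used by the rule. The vectors were packaged as a pool, so that a barcode may have become separated from its enhancer, and the barcodes are described here as such. tdTomato had 64 UMIs in 27 of 47 injured OPC-like cells (62.1 CPM) and 11 UMIs in 4 of 14 uninjured ones (116 CPM), a ratio of 0.536 whose interval spans 1. Injured astrocyte-like cells had 2182 CPM, and microglia-like cells, which should lack the reporter, 38.5 CPM with a UMI in 30.1% of cells. In the injured library the Poisson intervals of OPC-like (47.9 to 79.4 CPM) and microglia-like cells (29.9 to 48.7 CPM) overlapped at their ends. In the uninjured library 29 microglia-like cells had no tdTomato UMI (0 to 32.8 CPM). The interval of uninjured OPC-like cells was 57.9 to 208 CPM, with 7 of the 11 UMIs in 1 cell.

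Of 23 barcode features, 5 had UMIs in injured OPC-like cells, 209 in all, with at least 1 in 46 of 47 cells and a median of 3 per cell. M5 had 80 UMIs (77.7 CPM), and its rate over that of astrocyte-like cells was 0.837 (0.636 to 1.09). The ratio was 0.754 for A1 (0.560 to 1.00), 0.924 for A5 (0.611 to 1.38) and 0.905 for M8 (0.504 to 1.57), so the interval of each of the 4 spanned 1. M24 had 4 UMIs in 4 cells, a ratio of 0.210 (0.0545 to 0.586). Of the 37 M24 UMIs of astrocyte-like cells, 10 were in 1 cell. Against microglia-like cells the ratio was 1.00 for M5 (0.751 to 1.33), 0.724 for A1 (0.536 to 0.969) and 0.497 for M24 (0.119 to 1.58). In uninjured OPC-like cells only A5 was found, with 8 UMIs in 7 of 14 cells (84.4 CPM), 1.46 times the rate of uninjured astrocyte-like cells (0.628 to 2.89). Cycle-high and other injured OPC-like cells had 224 and 170 CPM of barcode UMIs, a ratio of 1.31 (0.976 to 1.78).

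**Figure D5:**
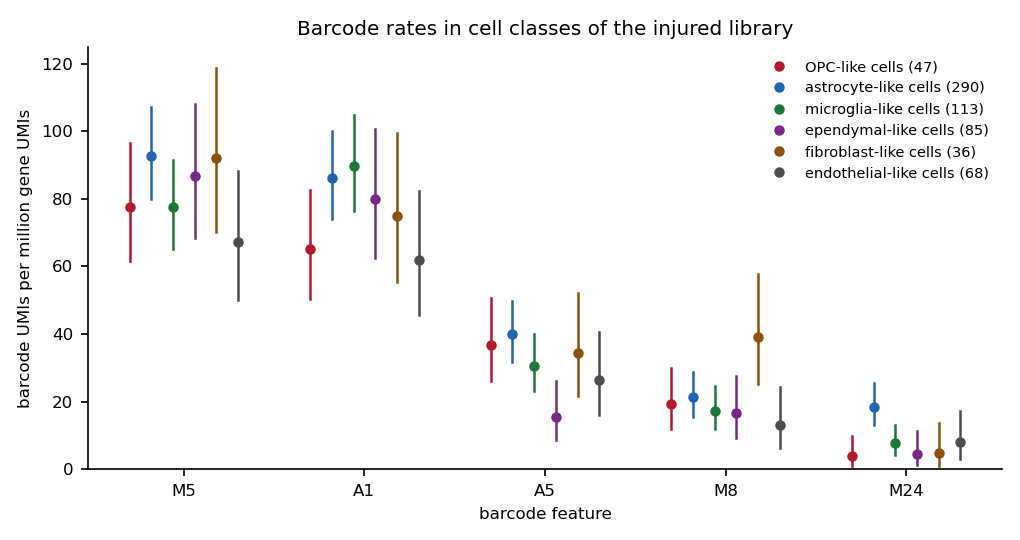
Barcode UMIs as CPM of gene UMIs for 5 barcode features (horizontal axis) in 6 cell classes of the injured library, with exact Poisson 95% intervals of the counts. OPC-like cells (red) overlap astrocyte-like cells for M5, A1, A5 and M8, and lie below them for M24 (3.88 against 18.5 CPM). The remaining classes lie at 4.45 to 7.91 CPM for M24, so a low M24 rate is not particular to OPC-like cells.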

How the data were processed

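The authors digested and sorted the cells, prepared 10x Chromium 3′ v3.1 libraries with a separate barcode amplicon library, and deposited UMI counts per gene and per barcode feature for 2 conditions. Cell Ranger is given as 8.0.1 in the submitters' processing notes and as 7.1.0 in the file headers, and the build as mm10. The deposited counts were used as they stand, with 919 injured and 4159 uninjured barcodes. Positions came from GENCODE M21 (99.8% of gene IDs matched) and promoter windows from RefSeq (GRCm38.p6).

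The members and gene lists were chosen with earlier results of these data known. UMIs were summed over OPC-like cells and divided by their gene UMIs, and ratios were given exact conditional binomial 95% intervals. A gene was called when its whole interval lay beyond 2-fold. Injured OPC-like cells hold 1029970 and uninjured ones 94822 gene UMIs, so a count of 0 allows up to 2.91 and 31.6 CPM. With 1 library per condition no test was possible, and intervals cover counting error only, cells not being replicates. Genes named were the rule's genes, the 15 with the most extreme nearest bound each way (sex and blood genes apart), up to 4 called genes per list, or the 2 with most UMIs, and genes called in opposite directions in astrocyte-like cells. Others are named for reference and were chosen after their values were seen. Cells of the other classes met exactly 1 class rule, which asked for at least 4 of 8 markers (astrocyte- and microglia-like) or 3 of 5 (endothelial-, fibroblast- and ependymal-like), with 5 or more C1q UMIs for microglia-like cells and fewer for the rest. The doublet state of cells was not called, and cells with 3 or more markers of another class were left out in an alternative. The calls were also run on simulated Poisson counts without spread between cells, so that run does not speak to such spread. Scripts used Python 3.11.15, numpy 2.4.6, scipy 1.17.1 and scanpy 1.11.5. Alternatives changed the rule for members, the fold, the thinning, the sex of cells and the clustering. One gene of the lists is not reported here.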

Additional observations from a re-analysis of the deposited data

Results flagged for a closer look

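Genes called in opposite directions in OPC-like and astrocyte-like cells drew a closer look, since each fell in injured OPC-like cells and rose in injured astrocyte-like cells of the same libraries. The difference between the classes was not tested, because each condition has 1 library. Csmd1 had a log2 ratio of -1.79 in OPC-like cells (946 and 301 UMIs) and 3.09 in astrocyte-like cells (138 and 116 UMIs, injured and uninjured). Ier2 had -2.24 and 1.89, Megf11 had -1.73 and 2.84, Chst11 had -1.54 and 1.25, and Asic2 had -1.91 and 2.40. Some ratios of astrocyte-like cells rest on few UMIs, with 9 and 9 for Megf11, 29 and 56 for Ier2 and 9 and 7 for Arhgap22. Agbl4, a tubulin-modifying enzyme, had -2.64 and 2.60, on 47 and 27 UMIs in OPC-like cells. Tmem132c (-3.25 and 2.25) and Arhgap22 (-3.80 and 3.20) rest on fewer than 10 UMIs in each group of OPC-like cells. Morn3, with 0 and 2 UMIs, has no defined ratio.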

How the results depend on the processing

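No paired analysis was possible because there is only 1 library of each kind per condition, and no library could be left out. Of 82 genes followed, 71 showed no reversal in any alternative run. A reversal was a change of sign in a gene called in the main or the alternative run. Sign changes of genes called in neither were not counted, such as that of Pdgfra (-0.22 as reported, 0.08 with at least 3 of 7 rule genes). Counts of genes higher and lower (113 and 150 as reported) moved to 191 and 267 with at least 3 of 7 rule genes, 245 and 344 at a bound of 1.5-fold, 33 and 34 at 3-fold, 37 and 34 after thinning to 2000 gene UMIs, and 536 and 2503 by the mean of per-cell CPM, where the fold alone made the call, without its interval. With no upper UMI limit 173 were higher. Without the richest cell per gene 73 were lower, and among genes that could be called either way, an alternative chosen after seeing the data, 45. Without the cycle-high cells, also chosen afterwards, the counts were 60 and 65. Over astrocyte-like cells 1658 genes became 2521 at 1.5-fold, 1021 at 3-fold, 744 after thinning and 3679 by per-cell means. The injured share of 5.35% was 3.75% with no C1q UMI and 3.07% without cells that hold 3 markers of another class. The shares with cycle UMIs became 85.1% and 50% at 1 UMI or more, 0% of uninjured cells at 5 or more and with 3 of 7 rule genes, and 73.9% of injured cells at 5000 gene UMIs. Among genes called in either run, log2 ratios changed sign with at least 3 of 7 rule genes for Kcnip4 (1.53) and Meg3 (0.50). After thinning they did so for Birc5 (-1.01), Cdk1 (-0.75), Cenpa (-0.16), Kif11 (-0.52), Pcna (-0.52), Rrm2 (-0.33) and Tubb6 (-1.33). Without cycle-high cells they did so for Cenpf (-1.07), Pcna (-0.66), Tpx2 (-1.66) and Tubb6 (-1.34). After thinning and without cycle-high cells, these genes had 0 or few UMIs in uninjured cells, with a count of 0 set at 3. The causes were not tested. The 94822 UMIs of the uninjured OPC-like cells limit what could be called higher.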
